A study of Bos taurus with 44 samples.

Results

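CSF1, CSF2RB and IL3 were the members described here: 2 myeloid growth factors and the receptor chain that one of them shares with other cytokines. They were taken as the spots whose annotation gave 1 of these symbols and no other, which came to 3 of the 141 named genes and 32 of the 1680 spots of a bovine spotted cDNA array. The rule used names and no measured value, but earlier results of these data were known when the members were chosen. CSF1 was printed as 2 cDNA clones, called clone 1 and clone 2 here, with 8 spots each, and CSF2RB and IL3 were each printed as 8 spots of 1 clone. No member was lost to a filter, and 4 of the 704 spot values of CSF1, 0 of the 352 of CSF2RB and 1 of the 352 of IL3 were missing.

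The RNA came from blood mononuclear cells (chiefly lymphocytes, with monocytes) of female Holstein cows, separated on a Percoll gradient. All cows had been immunized, blood was taken 6 days later, and the isolated cells received no further treatment. The cows had been classed as high or low for their antibody response, called Ab, or for their cell-mediated response, called DTH in the labels. The labels give no ages. One cow was classed as high-Ab and high-DTH and is called the shared cow. There were 2 further high-Ab cows, 2 further high-DTH cows, 3 low-Ab cows and 3 low-DTH cows, which made 11 cows and 44 arrays. The labels give no animal identities beyond the shared cow, so cows of other groups were taken as different animals. Each array compared amplified RNA of 1 cow with a common RNA standard, also made from blood mononuclear cells, on 21 arrays with Alexa647 and on 23 with Alexa555 on the cow's RNA. The value is a log2 ratio, read as cow over standard, which is the likely convention but is not stated. It places each cow against the standard and gives no absolute level, so neither a level of 1 gene against another nor the presence of a cell type can be read from it. In RNA of a cell mixture, fewer cells of a type and less RNA per cell cannot be told apart.

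CSF1, or macrophage colony-stimulating factor, is secreted by several cell types and keeps monocytes and macrophages alive and growing through the receptor CSF1R. IL3, or multi-colony-stimulating factor, is made mainly by activated T cells and stimulates early myeloid cells, basophils and mast cells. IL3, CSF2 and IL5 each bind an alpha chain of their own, and all signal through the common beta chain that CSF2RB encodes, which works with JAK2 and STAT5. CSF1 does not use that chain. In the RefSeq annotation of the ARS-UCD2.0 assembly, IL3 lies next to CSF2, and CSF2RB lies next to NCF4, a subunit of the phagocyte NADPH oxidase.

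All 3 members lay close to the standard in most cows. Over the 11 cows the mean log2 ratio was 0.04 ± 0.07 (SD, range −0.09 to 0.19) for CSF1, −0.01 ± 0.07 (−0.12 to 0.14) for CSF2RB and 0.02 ± 0.15 (−0.14 to 0.31) for IL3. The vapA spots, a set of 16 spots for a gene that is not bovine, gave 0.03 ± 0.09 (−0.13 to 0.20) in the same cows. As deposited, every cow value of CSF1 and CSF2RB therefore lay inside the range of the vapA spots. The upper end of that range was low-DTH cow 3, which has an array of unsettled sign, described below. With that array turned, the range ended at high-Ab cow 3 (0.12). In high-DTH cow 3, CSF1 (0.19) and CSF2RB (0.14) then lay above it, and CSF2RB in low-DTH cow 3 (−0.17) lay below the range. IL3 lay above the vapA range as deposited in 2 cows, high-Ab cow 2 and low-Ab cow 3, and slightly below it in 2, high-Ab cow 3 and high-DTH cow 3. No spot intensities were analysed here, so how far a member's spots stood above background could not be read, and precision is judged from the numbers of cows and arrays.

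**Figure D1:**
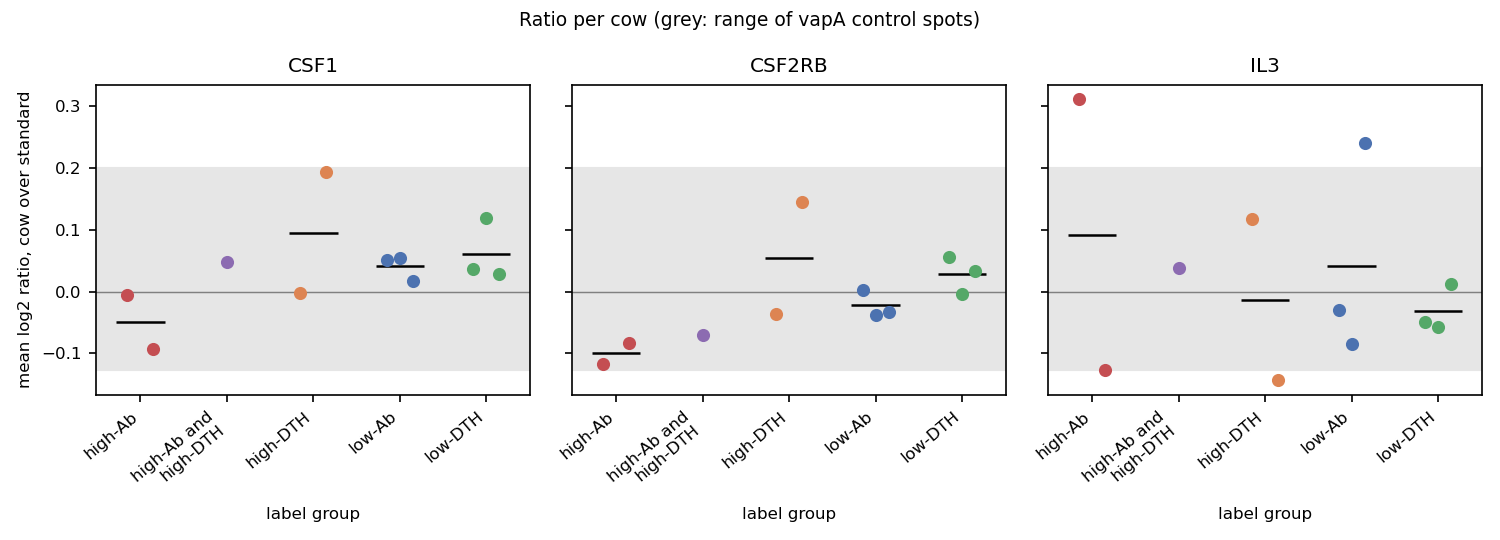
Mean log2 ratio of CSF1, CSF2RB and IL3 in each cow (1 point a cow, vertical axis) by label group (horizontal axis). Bars are means of the cows in a column, with the shared cow in a column of its own, and grey marks the range of the vapA spots over the 11 cows (−0.13 to 0.20). With all arrays as deposited, CSF1 and CSF2RB stay inside the grey range, and IL3 leaves it upward in high-Ab cow 2 (0.31) and low-Ab cow 3 (0.24).

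The CSF1 ratio was 0.05 in the shared cow, −0.0057 and −0.09 in high-Ab cows 2 and 3, and −0.0018 and 0.19 in high-DTH cows 2 and 3. It was 0.05, 0.05 and 0.02 in low-Ab cows 1 to 3 and 0.04, 0.12 and 0.03 in low-DTH cows 1 to 3. The highest and the lowest cow were both high responders, high-DTH cow 3 and high-Ab cow 3, and the low cows lay between them. That order held for clone 1 but not for clone 2, whose highest cow was low-Ab cow 2 (0.13, against 0.12 in high-DTH cow 3). Counting the shared cow in both high groups, the group means in rising order were −0.02 ± 0.07 in high-Ab, 0.04 ± 0.02 in low-Ab, 0.06 ± 0.05 in low-DTH and 0.08 ± 0.10 in high-DTH cows (SD, n = 3 each). No step between neighbours in that order exceeded the larger of the SDs beside it.

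The CSF2RB ratio was −0.07 in the shared cow, −0.12 and −0.08 in high-Ab cows 2 and 3, and −0.04 and 0.14 in high-DTH cows 2 and 3. It was 0.0033, −0.04 and −0.03 in low-Ab cows 1 to 3 and 0.06, −0.0043 and 0.03 in low-DTH cows 1 to 3. The 3 cows classed as high-Ab were the 3 lowest of the 11, and high-DTH cow 3 was the highest, as it was for CSF1. That order rests on 1 array of unsettled sign, described below: with its sign turned, low-DTH cow 3 fell to −0.17 and was the lowest of the 11. The group means rose from −0.09 ± 0.02 in high-Ab through −0.02 ± 0.02 in low-Ab and 0.01 ± 0.12 in high-DTH to 0.03 ± 0.03 in low-DTH cows (SD, n = 3 each, the shared cow in both high groups). Only the first of these steps exceeded the SDs of the groups beside it.

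The IL3 ratio was 0.04 in the shared cow, 0.31 and −0.13 in high-Ab cows 2 and 3, and 0.12 and −0.14 in high-DTH cows 2 and 3. It was −0.03, −0.08 and 0.24 in low-Ab cows 1 to 3 and −0.05, −0.06 and 0.01 in low-DTH cows 1 to 3. Every group but low-DTH held a cow well above 0 and a cow below 0. The group means ran from −0.03 ± 0.04 in low-DTH through 0.0035 ± 0.13 in high-DTH and 0.04 ± 0.17 in low-Ab to 0.07 ± 0.22 in high-Ab cows (SD, n = 3 each, the shared cow in both high groups), and no step between neighbours exceeded the larger of the SDs beside it.

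The members differed in how much they varied. The SD over cows of CSF1 and CSF2RB, 0.07 each, ranked 15 and 17 from the lowest among the 141 named genes, while that of IL3, 0.15, ranked 72 and was close to the median gene at 0.15. Arrays of the same cow and the same dye differed by an SD of 0.14 for CSF1, 0.16 for CSF2RB and 0.22 for IL3, against 0.23 for the median gene. For each member, and for the median gene, the spread between single repeat arrays of a cow thus exceeded the spread between cow means. A cow mean averages several arrays, which narrows its spread, so this comparison does not show how far the cows differ. The spread between arrays also includes the arrays of unsettled sign, described below, as deposited. The arrays numbered 3 to 5 spread more over cows than arrays 1 and 2, with SDs of 0.14 against 0.09 for CSF1, 0.17 against 0.06 for CSF2RB and 0.23 against 0.11 for IL3, as did the median named gene (0.23 against 0.15). Of the CSF1 clones, clone 1 went this way (0.23 against 0.09) and clone 2 did not (0.08 against 0.10). Spots of a member on 1 array differed by a median SD of 0.17, 0.16 and 0.16 for CSF1, CSF2RB and IL3.

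The first question of the design was whether cows with a high antibody response differed from cows with a low one. CSF2RB was lower in the 3 high-Ab cows (−0.12 to −0.07) than in the 3 low-Ab cows (−0.04 to 0.0033), with no overlap, while CSF1 and IL3 overlapped. None of the members passed the test. The high-minus-low difference in log2 ratio was −0.07 ± 0.08 (SE, 95% interval −0.26 to 0.13, limma adjusted p = 0.954) for CSF2RB, −0.06 ± 0.09 (−0.27 to 0.15, adjusted p = 0.988) for CSF1 and 0.03 ± 0.15 (−0.33 to 0.40, adjusted p = 0.999) for IL3. Of the 562 features tested, 0 passed an adjusted p of 0.05 (0%) and 37 had an unadjusted p under it (6.58%), none of them a member. Groups did not overlap for 15 of the 141 named genes (10.6%), CSF2RB among them, and 3 cows against 3 cannot give an exact permutation p below 0.1. The separation of CSF2RB was present on the Alexa647 arrays alone (high −0.14 to −0.10, low −0.07 to 0.05) and absent on the Alexa555 arrays alone (high −0.12 to −0.03, low −0.13 to 0.0089). It was also absent on arrays 1 and 2 alone, on arrays 3 to 5 alone and after median centring and scaling. The IL3 difference was −0.09 without high-Ab cow 2.

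The second question was the same for the cell-mediated response. The high-DTH minus low-DTH difference was 0.02 ± 0.09 (SE, 95% interval −0.21 to 0.24, limma adjusted p = 0.939) for CSF1, −0.02 ± 0.09 (−0.24 to 0.21, adjusted p = 0.953) for CSF2RB and 0.03 ± 0.10 (−0.21 to 0.28, adjusted p = 0.915) for IL3. As deposited, for each member the high-DTH cows spanned a wider range than the low-DTH cows and overlapped them. With the unsettled array of low-DTH cow 3 turned, described below, this no longer held for the range of CSF2RB. The low-DTH cows then spanned −0.17 to 0.06, slightly more than the high-DTH cows at −0.07 to 0.14. Among 565 features 0 passed (0%), and the unadjusted p was under 0.05 for 55 (9.73%), none of them a member, and 22 of the 141 named genes had no overlap (15.6%).

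Low-Ab and low-DTH cows were compared directly, since no cow was in both groups. The low-Ab minus low-DTH difference was −0.02 ± 0.09 (SE, 95% interval −0.23 to 0.19, limma adjusted p = 0.974) for CSF1, −0.05 ± 0.08 (−0.25 to 0.15, adjusted p = 0.919) for CSF2RB and 0.07 ± 0.12 (−0.20 to 0.35, adjusted p = 0.919) for IL3. All 3 members overlapped between these groups. Among 564 features 0 passed (0%), the unadjusted p was under 0.05 for 45 (7.98%), and there was no overlap for 19 of the 141 named genes (13.5%).

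With the traits pooled, the 5 high cows minus the 6 low cows gave −0.02 ± 0.06 (SE, 95% interval −0.16 to 0.11) for CSF1, −0.04 ± 0.06 (−0.17 to 0.10) for CSF2RB and 0.03 ± 0.09 (−0.17 to 0.24) for IL3, each with a limma adjusted p of 0.996. Among 561 features 0 passed (0%), the unadjusted p was under 0.05 for 20 (3.57%), and 2 of the 141 named genes had no overlap (1.42%). The Ab effect minus the DTH effect was −0.08 ± 0.11 (−0.33 to 0.17) for CSF1 and −0.05 ± 0.10 (−0.29 to 0.19) for CSF2RB, with a limma adjusted p of 0.882 for both. For IL3 it was −0.0026 ± 0.18 (−0.42 to 0.42, adjusted p = 0.991). Here 7 of 561 features passed (1.25%), the unadjusted p was under 0.05 for 57 (10.2%), and no member was among either. The Ab and DTH comparisons both contain the shared cow.

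**Figure D2:**
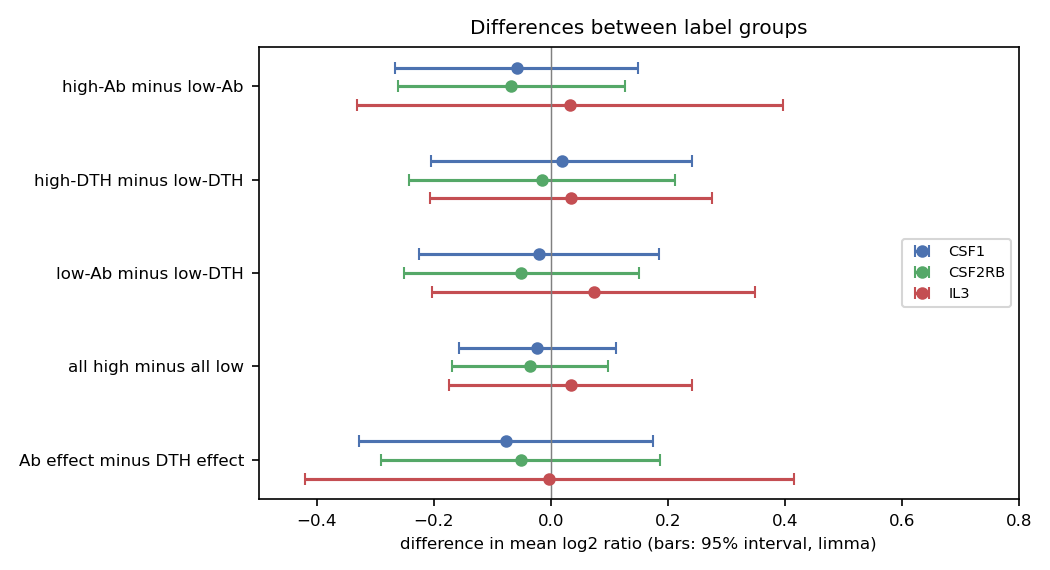
Difference in mean log2 ratio (horizontal axis; points, with 95% intervals from limma as bars) of CSF1, CSF2RB and IL3 in each of the 5 comparisons (vertical axis). Every interval includes 0, and those of IL3 are the widest, reaching −0.42 and 0.42 for the difference between the Ab and DTH effects.

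The sign of the ratio was not settled for 3 arrays. In low-Ab cow 1, arrays 1 and 2 had a mean correlation over the features of −0.22 and −0.28 with the arrays of the other cows, and in low-DTH cow 3 array 3 had one of −0.24. With the sign of these 3 arrays turned, the Ab difference was −0.08 for CSF1, −0.08 for CSF2RB and 0.02 for IL3, and CSF2RB still had no overlap. The DTH difference became −0.0076 for CSF1, 0.05 for CSF2RB and 0.03 for IL3, and the low-Ab minus low-DTH difference −0.03, 0.03 and 0.08. Pooled, high minus low became −0.05, −0.0077 and 0.02, and the difference between effects −0.07, −0.13 and −0.0095. No member passed the test in that setting either.

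IL3 stood out in another respect: its ratio depended on which dye the cow's RNA carried. The mean over cows was −0.23 ± 0.16 with Alexa647 and 0.27 ± 0.28 with Alexa555 on the cow's RNA (SD, n = 11), and 20 of the 21 Alexa647 arrays lay below 0 while 21 of the 23 Alexa555 arrays lay above it. The ratio with Alexa555 minus that with Alexa647 was 0.50 ± 0.35 (SD, n = 11 cows), above 0 in 10 of 11 cows (two-sided exact sign-flip permutation test, p = 0.00195, 0.00977 after Benjamini-Hochberg adjustment over the 3 genes and 2 clones). With the sign of the 3 unsettled arrays turned and their dye labels kept, it was 0.45 and above 0 in 11 of 11 cows.

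The dye changed the sign of IL3 within single cows. High-Ab cow 2, the highest cow, went from −0.23 with Alexa647 to 0.85 with Alexa555, and low-Ab cow 3, the second highest, from −0.22 to 0.70. High-Ab cow 3 went from −0.43 to 0.18, low-Ab cow 1 from −0.46 to 0.40 and low-Ab cow 2 from −0.37 to 0.21. The shared cow went from −0.06 to 0.13, high-DTH cow 2 from −0.05 to 0.28 and high-DTH cow 3 from −0.31 to 0.03. Low-DTH cow 1 went from −0.13 to 0.04 and low-DTH cow 2 from −0.28 to 0.16, while low-DTH cow 3 stayed at 0.02 and 0.0068. A cow's mean weights both orientations equally, so the cow values of IL3 given above are midpoints between values of opposite sign in all cows but low-DTH cow 3. The single highest IL3 value was 1.32, on array 4 of high-Ab cow 2, whose other Alexa555 array gave 0.39.

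No dye difference was detected for CSF1 or CSF2RB. The Alexa555 minus Alexa647 difference was −0.03 ± 0.11 (SD, n = 11, exact sign-flip permutation p = 0.449, adjusted 0.562) for CSF1, above 0 in 4 of 11 cows, and −0.02 ± 0.12 (exact p = 0.582, adjusted 0.582) for CSF2RB, above 0 in 6 of 11. The vapA spots gave 0.04 ± 0.09. By the size of this difference IL3 ranked 3 of the 141 named genes, behind C4A (−0.68 ± 0.86) and the chemokine CXCL8 (0.63 ± 1.22), whose SDs were larger. CSF1 ranked 129 and CSF2RB 131, and the median size over the named genes was 0.14. In all, 16 of the 141 genes (11.3%) lay on the same side of 0 in all 11 cows, 12 of them above it and 4 below. As deposited, IL3 was not among them, being above 0 in 10 of 11. The sign-flip test was not run on the other named genes.

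**Figure D3:**
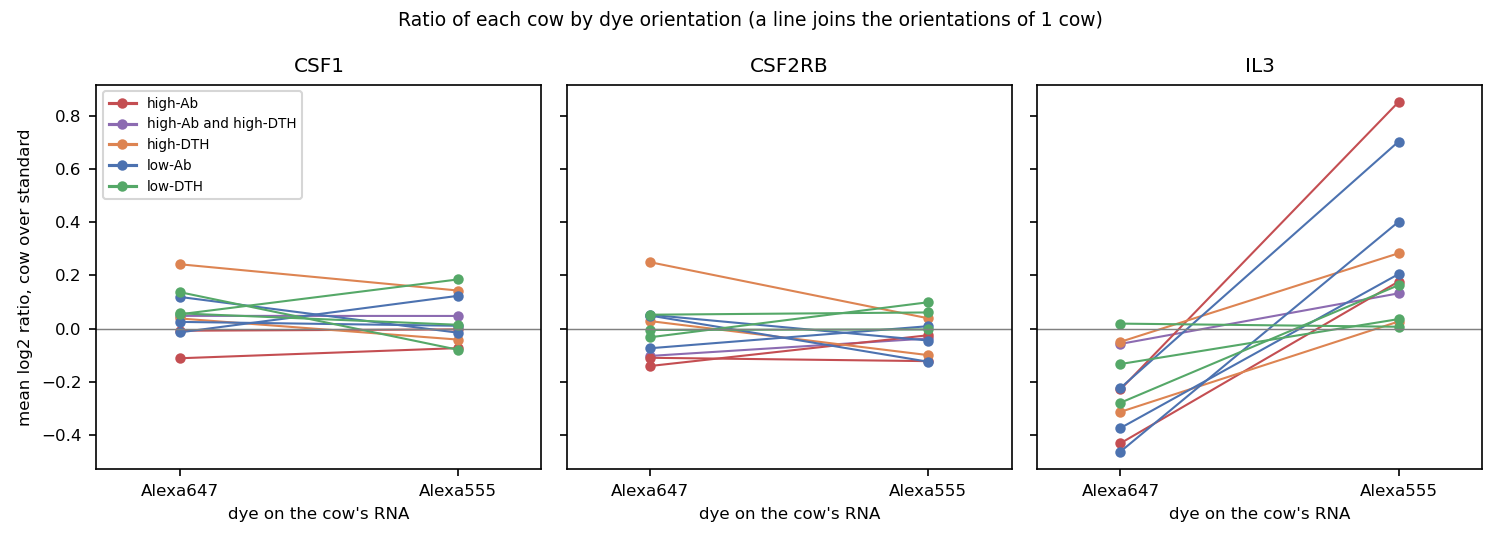
Mean log2 ratio of each cow (vertical axis) with Alexa647 or Alexa555 on the cow's RNA (horizontal axis), for CSF1, CSF2RB and IL3. A line joins the orientations of 1 cow and colours mark label groups. The lines of IL3 rise in 10 of 11 cows, and those of CSF1 and CSF2RB rise in 4 and 6.

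**Figure D4:**
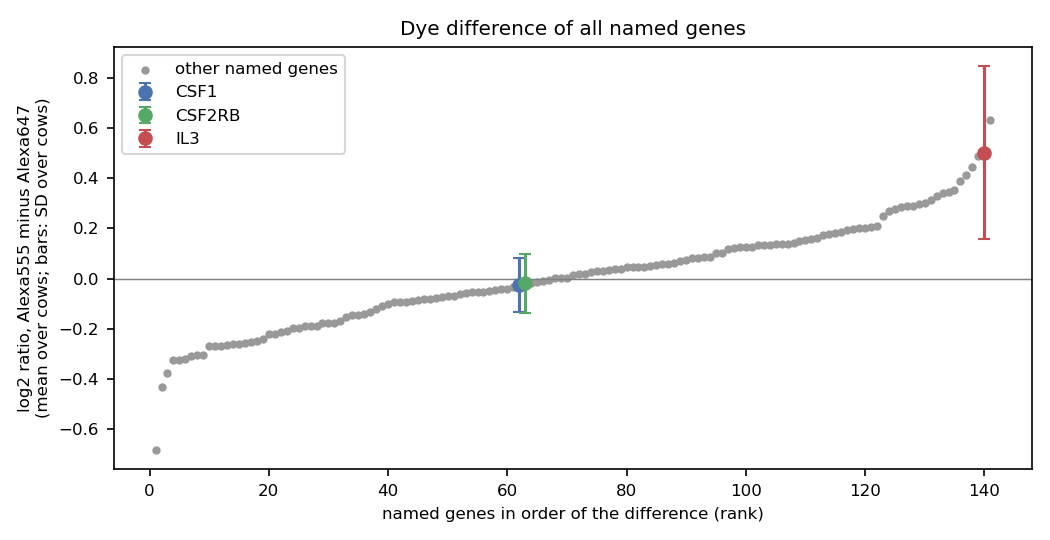
Log2 ratio with Alexa555 minus that with Alexa647 on the cow's RNA, as a mean over 11 cows (vertical axis), for the 141 named genes in rising order (horizontal axis, rank). Bars on the members are SDs over cows. IL3 lies near the upper end at 0.50, and CSF1 and CSF2RB lie near 0.

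The dye difference of IL3 also varied between cows. It was 0.81 ± 0.21 in the 5 cows labelled for Ab alone (0.58 to 1.08) and 0.25 ± 0.18 in the 5 labelled for DTH alone (−0.01 to 0.44), and 0.19 in the shared cow. These sets did not overlap, a pattern that was looked at after the values were seen and that 22 of the 141 named genes showed (15.6%). With the sign of the unsettled arrays turned and their dye labels kept, low-Ab cow 1 came to 0.20 and the sets overlapped. On the unsettled arrays of that cow, this turn puts IL3 on the side of 0 opposite to the one usual for the dye. Exchanging the dye labels together with the sign was not tried, so the overlap is given for the sign turn alone. The low-Ab minus low-DTH difference of IL3 had opposite signs by dye, at −0.22 ± 0.12 (SE) on the Alexa647 arrays and 0.37 ± 0.17 on the Alexa555 arrays, with unadjusted limma p-values of 0.115 and 0.0622.

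A set of 5 genes, IL3, IL12A, IL12RB1, IL6R and TGFBR1, had their Alexa647 and Alexa555 values on opposite sides of 0 in at least 9 of the 11 cows when the 3 unsettled arrays were left out. On arrays 1 and 2 of low-Ab cow 1, as deposited, 5 of these 5 genes lay on the side usual for the dye, with IL3 at −0.38 and 0.29. On array 3 of low-DTH cow 3, 3 of the 5 did, and IL3 was at −0.05.

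The 2 clones of CSF1 had near-equal means over the cows but varied little alike. Clone 1 averaged 0.04 ± 0.12 and clone 2 0.04 ± 0.06 (SD, n = 11 cows), and clone 1 minus clone 2 was −0.00091 ± 0.12, between −0.17 and 0.15 (two-sided exact sign-flip permutation test, p = 0.979), above 0 in 7 of 11 cows. Across the 11 cows the clones correlated at r = 0.20 and rho = 0.12, and across the 44 arrays at r = 0.31. Their group differences were −0.05 and −0.08 for Ab and 0.02 and 0.01 for DTH, for clone 1 and clone 2 in that order. For low-Ab minus low-DTH they had opposite signs, −0.11 ± 0.09 and 0.07 ± 0.09 (SE), so the CSF1 value of −0.02 in that comparison averages a negative and a positive one. The Alexa555 minus Alexa647 difference was −0.09 ± 0.15 for clone 1 (exact sign-flip permutation p = 0.0977, adjusted 0.244) and 0.04 ± 0.13 for clone 2 (exact p = 0.335, adjusted 0.558), both n = 11. In high-DTH cow 3, the highest cow for CSF1, the 4 arrays gave CSF1 ratios of 0.08, −0.07, 0.40 and 0.35, so that its high mean came from arrays 3 and 4. CSF2RB ran likewise in that cow, at 0.06, −0.07, 0.44 and 0.15.

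**Figure D5:**
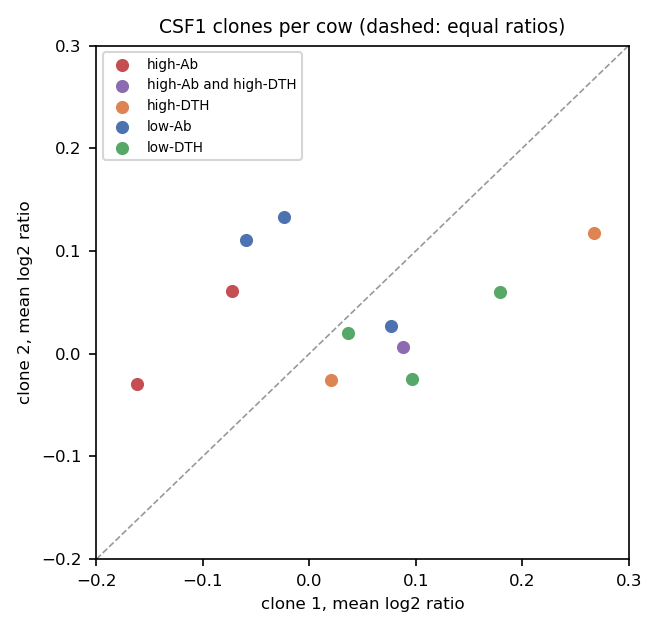
Mean log2 ratio of CSF1 clone 1 (horizontal axis) against clone 2 (vertical axis), 1 point a cow, coloured by label group, with the line of equal ratios dashed. The points scatter widely around the line (r = 0.20 over 11 cows), and clone 1 spans −0.16 to 0.27 against −0.03 to 0.13 for clone 2.

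CSF1 and CSF2RB varied alike over the cows, but not past the adjusted threshold. Their cow values correlated at r = 0.74 (n = 11, permutation p = 0.0122, adjusted 0.0731 over 6 relations) and rho = 0.58 (permutation p = 0.0662, adjusted 0.198). Without high-Ab cow 3 and high-DTH cow 3, the farthest from the median of CSF1, r was 0.34, so the relation rests on those cows, and with the unsettled arrays turned it was 0.52. It was 0.77 on the Alexa647 arrays and −0.08 on the Alexa555 arrays, and 0.00072 on arrays 1 and 2 and 0.16 on arrays 3 to 5. IL3 had negative correlations with both over all arrays, at r = −0.33 with CSF1 (permutation adjusted p = 0.380, rho = −0.53, permutation adjusted p = 0.198) and r = −0.54 with CSF2RB (permutation adjusted p = 0.214, rho = −0.36, permutation adjusted p = 0.326), also short of the threshold. The direction for CSF1 and IL3 did not hold within subsets of arrays: r was 0.39 on arrays 1 and 2, −0.52 on arrays 3 to 5, 0.20 on the Alexa647 arrays and −0.18 on the Alexa555 arrays, and −0.71 without high-Ab cow 3 and high-DTH cow 3. For CSF2RB and IL3 it was −0.28, −0.52, −0.16 and −0.53 on these subsets, and −0.37 without high-DTH cow 3 and low-DTH cow 1.

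CD14, a co-receptor for bacterial lipopolysaccharide that marks monocytes, was set against each member. Its correlation over the 11 cows was r = 0.49 with CSF1 (permutation adjusted p = 0.214, rho = 0.48), 0.47 with CSF2RB (permutation adjusted p = 0.214, rho = 0.54) and −0.21 with IL3 (permutation adjusted p = 0.535, rho = −0.33). As deposited, none of these 3 relations passed the threshold. With the unsettled arrays turned, a test added after the values were seen, CSF2RB and CD14 correlated at r = 0.85 (permutation p = 0.00135, adjusted 0.00810 over 6 relations) and rho = 0.76 (permutation p = 0.00838, adjusted 0.0503), and at r = 0.58 without high-DTH cow 3 and low-DTH cow 3. The other 5 relations did not pass in that setting. As deposited, CSF2RB and CD14 gave r = −0.25 without high-DTH cow 3 and low-DTH cow 1, 0.56 on arrays 1 and 2, 0.26 on arrays 3 to 5, 0.68 on the Alexa647 arrays and −0.19 on the Alexa555 arrays. CSF1 and CD14 gave 0.11 without high-Ab cow 3 and high-DTH cow 3, and −0.31, 0.65, 0.36 and 0.51 on the same subsets of arrays. IL3 and CD14 gave −0.32 without high-Ab cow 2 and low-Ab cow 3, and 0.06, −0.23, −0.17 and 0.22 on those subsets.

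The genes whose cow values were most like each member were found by Pearson's r over the 11 cows among the other 140 named genes, as a description. For IL3 they were IL12RB1, a chain of the IL12 receptor (r = 0.92, rho = 0.90), IL12A, a subunit of IL12 (r = 0.89, rho = 0.86), and IL4, a type 2 cytokine (r = 0.82, rho = 0.69). All 3 shared the dye dependence of IL3, with Alexa555 minus Alexa647 differences of 0.33 for IL12RB1, 0.44 for IL12A and 0.19 for IL4, each above 0 in 11 of 11 cows. The part of the dye in these likenesses was not tested. For CSF1 they were LOC407171 (r = 0.76), CSF2RB (0.74) and FCER1G, the gamma chain that Fc receptors signal through (0.71). For CSF2RB they were CSF1 (0.74), LOC407171 (0.73) and IL6R, the IL6 receptor (0.72). These values share their libraries, and turning the unsettled arrays moved the values of CSF1 to 0.59, 0.52 and 0.55. Those of CSF2RB became 0.52, 0.80 and 0.69, and those of IL3 were 0.92, 0.89 and 0.80.

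Of the other ligands and alpha chains that work with CSF2RB, 2 of 5 were among the named genes, CSF2 and IL5, and 0 of them passed in any comparison. CSF2, the granulocyte-macrophage colony-stimulating factor, had differences of −0.14 ± 0.11 (SE) for Ab and −0.05 ± 0.11 for DTH. IL5, the growth factor of eosinophils, had −0.07 ± 0.10 and −0.09 ± 0.08. As deposited, both lay below 0 in both traits, where the median of the 141 named genes was −0.01 for Ab and −0.03 for DTH. With the unsettled array of low-DTH cow 3 turned, CSF2 in that cow fell from 0.11 to −0.09, and the DTH difference of CSF2 lay above 0. The neighbour gene CSF2 did not share the dye pattern of IL3: its Alexa555 minus Alexa647 difference was −0.19 ± 0.23 and was above 0 in 2 of 11 cows, while that of IL5 was 0.14 ± 0.17 and above 0 in 9. The CSF1 receptor and its other ligand IL34 were not among the named genes.

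Other growth factors and their receptors were measured for 3 of 17 listed genes, and none passed. CSF3, the granulocyte colony-stimulating factor, had −0.0050 ± 0.11 (SE) for Ab and 0.08 ± 0.09 for DTH. IL6 had 0.04 ± 0.16 and 0.25 ± 0.25, and IL6R −0.06 ± 0.08 and 0.04 ± 0.08. The median of these 3 was −0.0050 for Ab and 0.08 for DTH. Of 22 listed genes of signalling downstream of such receptors, 4 were measured (STAT3, STAT6, BCL2 and BCL2L1), 0 passed, and the median difference was 0.04 for Ab and −0.08 for DTH. The survival gene BCL2 spanned the most, at 0.17 ± 0.22 for Ab and −0.27 ± 0.24 for DTH.

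Among cytokines that activated T cells make, 7 genes besides IL3 were measured and 0 passed in any comparison. As deposited, all 7 had DTH differences below 0 (median −0.05), where 56 of the 141 named genes lay above 0, and for Ab 2 lay above and 5 below (median −0.03). With the unsettled array of low-DTH cow 3 turned, that cow fell from 0.11 to −0.09 for CSF2 and from 0.14 to 0.06 for IL17A. The DTH differences of CSF2 and IL17A then lay above 0, and the others stayed below it, some only just. IL17A, a cytokine of helper and gamma delta T cells, had a dye difference of 0.36, above 0 in 11 of 11 cows, while those of IL2 (−0.12) and IFNG (−0.03) lay below 0 on average.

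The markers of the cells that make or respond to these factors did not pass either. Of 16 monocyte markers 7 were measured. Their median difference was −0.07 for Ab (1 above 0 and 6 below) and −0.03 for DTH (3 above and 4 below), and their mean ratio ran from −0.23 to −0.11 in the high-Ab cows with the shared cow against −0.17 to −0.02 in the low-Ab cows. T cell markers, 7 of 11 measured, had median differences of 0.41 for Ab (6 above 0 and 1 below, 3 with an unadjusted p under 0.05) and 0.33 for DTH (7 above 0, 2 with an unadjusted p under 0.05), and 0 passed after adjustment. Over all features that share was 6.58% for Ab and 9.73% for DTH. All marker values here are as deposited. Turning the unsettled arrays raised all 7 T cell markers in low-Ab cow 1 (CD3D from −0.08 to 0.35), which lowers their Ab differences. In low-DTH cow 3 it raised CD3D, CD3E, CD3G and CD28 and lowered CD247, CD4 and CD5. Of 11 neutrophil markers 2 were measured. LTF, a granule gene, had an Ab difference of −1.04 ± 0.54 (SE, limma adjusted p = 0.858) and CXCR2, a chemokine receptor, one of −0.02 ± 0.10 (limma adjusted p = 0.999). CCR3, a chemokine receptor of eosinophils and basophils, was the 1 measured of 8 markers of eosinophils, basophils and mast cells and had a DTH difference of 0.65 ± 0.20 (limma adjusted p = 0.494). The part of these cells in the values of the members was not tested.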

How the data were processed

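Blood mononuclear cell RNA of 11 cows was measured on 44 two-colour arrays against a common RNA standard. The authors deposited a log ratio for every spot of an array, taken as log2, with array medians near 0. Not given in the sources used here are the log base, scanner, background correction, normalization and direction. Per the labels' protocols, RNA was amplified and the dyes were swapped within each cow; swapped arrays were taken as already turned. No spot intensities were used.

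Of the 1680 spots, 1224 carried 1 gene symbol, 16 several and 440 none, per the platform annotation. The 16 vapA spots were set aside as controls. Spots were averaged per gene, then arrays per dye orientation, then orientations per cow, so that the cow is the replicate. High-DTH cow 2 had 5 arrays, low-DTH cow 3 had 3 and the others 4. Unnamed spots entered singly. Groups came from the sample titles.

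Group differences were fitted with limma 3.58.1 (R 4.3.3; lmFit, eBayes) over all features, with p-values adjusted by Benjamini-Hochberg (threshold 0.05), and tested on simulated data. Exact sign-flip permutation tests (two-sided) were used for dyes and clones, and 100000 permutations for relations (Python 3.11.15, scipy 1.17.1). The text names the members, measured genes of preset lists and, for each member, the 3 genes of highest r; genes of larger dye difference than IL3, and those with opposite dye signs, were named after their values were seen. Members and lists were chosen with earlier results of these data known. Alternatives covered spot medians, single clones, array weighting, dye orientations, array numbers, the 3 unsettled arrays, normalization, the features tested, 1 fit of all cows, a replicate block, cows as random blocks, and each cow left out.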

Additional observations from a re-analysis of the deposited data

Results flagged for a closer look

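Of 36 groups of 4 to 6 cows or arrays, 4 held a value farther from the rest than Dixon's test allows, which chance does in about 1 of 20 groups. For CSF1, low-DTH cow 2 was the highest of the 6 low cows at 0.12. Also for CSF1, array 2 of low-Ab cow 2 was the highest of that cow's arrays at 0.23, the other 3 lying at −0.02, −0.01 and 0.02. For IL3, low-Ab cow 3 was the highest of the 6 low cows at 0.24, and its Alexa555 arrays gave 0.76 and 0.65 against −0.14 and −0.31 with Alexa647. Also for IL3, array 3 of high-DTH cow 3, with Alexa647 on the cow's RNA, was the lowest of that cow's arrays at −0.61, the others lying at −0.02, 0.04 and 0.01.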

How the results depend on the processing

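No member passed the threshold in any setting, so only directions and counts could change, and the cause of each change was not tested. The following differences changed sign, each to a value smaller than its standard error except that of IL3 between low-Ab and low-DTH cows. For Ab, IL3 (0.03) became −0.050 on Alexa555 arrays, −0.058 on arrays 1 and 2 and −0.0087 with spot medians. For DTH, CSF1 (0.02) became −0.028 on arrays 1 and 2 and −0.0076 with the unsettled arrays turned; CSF2RB (−0.02) became 0.054 on Alexa647 arrays, 0.026 with median centring and scaling, 0.0038 with quantile normalization, and 0.036 and 0.052 with the unsettled arrays left out and turned; IL3 (0.03) became −0.0091 on Alexa647 arrays and −0.0042 on arrays 1 and 2. For low-Ab against low-DTH, CSF1 (−0.02) became 0.0099 on arrays 1 and 2, 0.072 with clone 2, 0.011 with centring and scaling, 0.014 with quantile normalization and 0.0045 without the unsettled arrays; CSF2RB (−0.05) became 0.0041 on Alexa647 arrays, 0.0028 on arrays 1 and 2, and 0.015 and 0.030 with the unsettled arrays left out and turned; IL3 (0.07) became −0.22 on Alexa647 arrays. For all high against all low, CSF1 (−0.02) became 0.049 on arrays 3 to 5 and IL3 (0.03) −0.031 on arrays 1 and 2. For the difference between effects, CSF2RB (−0.05) became 0.077 on Alexa555 arrays and 0.0033 on arrays 3 to 5, and IL3 (−0.0026) became 0.12 on Alexa647 arrays, 0.042 on arrays 3 to 5, 0.011 with quantile normalization and 0.0018 without the unsettled arrays.

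Counts of features past the threshold moved most when arrays were fitted with the cow as a random block: from 0 to 16 for Ab, 9 for all cows and 2 for DTH, the same with a dye term, which was added after the data were seen. For the difference between effects, 7 features passed, against 2 with the random block, 3 with the dye term, 2 with named genes alone, 4 with a plain mean over arrays, and 0 with either dye, arrays 1 and 2, arrays 3 to 5, centring and scaling, quantile normalization, or the unsettled arrays turned or left out. For low-Ab against low-DTH, 0 became 3 with all cows in 1 fit, 2 with centring and scaling, 2 with named genes alone and 1 with a plain mean.

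Leaving out each cow in turn, the Ab difference ran from −0.090 to −0.020 for CSF1, −0.077 to −0.054 for CSF2RB and −0.087 to 0.13 for IL3, with 0 to 1 features past the threshold. The DTH difference ran from −0.038 to 0.059, −0.082 to 0.026 and −0.022 to 0.11 (0 features), low-Ab against low-DTH from −0.036 to 0.0091, −0.067 to −0.037 and −0.026 to 0.14 (0 features), all high against all low from −0.064 to 0.0069, −0.079 to −0.014 and −0.034 to 0.081 (0 features), and the difference between effects from −0.12 to −0.020, −0.10 to 0.014 and −0.12 to 0.098 (0 to 7 features).

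Deviations of cows of the same number from the means of the groups compared correlated at r from −0.51 to 0.18 over 9 pairs. With so few cows in a group, these values cannot show whether the numbers pair cows. With the cow number as a replicate block the Ab differences were −0.06, −0.07 and 0.03, the DTH differences 0.02, −0.02 and 0.03 and the low-Ab minus low-DTH differences −0.02, −0.05 and 0.07 for CSF1, CSF2RB and IL3, and 0 features passed in each. For the group means of members, here with the shared cow in neither high group (2 cows each), 25 values under single settings moved by over 1 SD and 103 did not.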
